A study of Populus deltoides with 38 samples.

Results

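Among 39572 loci measured by mRNA sequencing in leaves of the poplar Populus deltoides, 138 were lower with cadmium (Cd) at each of 3 sulfate supplies. They were chosen from the measured values: a mean of at least 5 FPKM (fragments per length of transcript and per depth of library) in at least 1 of 6 groups, and a fall with Cd of 0.8 or more on the log2(FPKM + 1) scale at each of those supplies. The Cd differences below therefore describe the choice and were not tested on these loci. Of all loci, 17555 reached 5 FPKM in a group, and the same rule in the upward direction found 20.

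Rooted stem cuttings grew for 8 weeks before hydroponics, and leaves are labelled 89 days old. Plants received 0 µM (low), 100 µM (middle) or 1500 µM (high) sulfate for 12 days. For the next 21 days, with the same sulfate, they had either 50 µM CdCl2 (+Cd) or none (−Cd). All groups share the labelled form, monilifera (Aiton) Eckenw, and the labels name no other genotype. Each of the 6 groups, +Cd and −Cd at each sulfate, had 3 mRNA and 3 small RNA libraries. The cut ends of transcripts (the degradome) were read in 2 pools of 9 RNAs, one with and one without Cd. In library names such as +CdL1, a sign gives the Cd, a letter the sulfate (L, M or H) and a digit the replicate. The labels do not say which plants went into each library, so p-values measure only how these samples varied, which may be technical.

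Cadmium is a metal with no known use in trees, taken up by transporters of nutrient metals. Plants bind it to thiols, mainly glutathione and the phytochelatins made from it, and these need sulfur, which roots take up as sulfate. MicroRNAs are short RNAs that guide the cutting of matching transcripts, and the degradome shows where such cuts fall. The files give Populus gene identifiers with no names, so no role is assigned to the loci, and the leaf label could not be checked against marker genes.

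The mRNA files give no library totals. By the steps between low FPKM values, the relative depth, set to 1 in −CdL1, was 0.608 to 0.791 in the 3 +CdH libraries, 0.748 to 1.06 in the other 6 +Cd libraries and 0.849 to 1.14 in the −Cd libraries. These ratios may also hold a scaling by the authors. The falls at low sulfate rested most on single libraries: the set had 215 loci without +CdL2, 214 without −CdL1 and 89 without +CdL3. Of the 138, 129 stayed without +CdL2, 127 without −CdL1 and 82 without +CdL3.

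**Figure D1:**
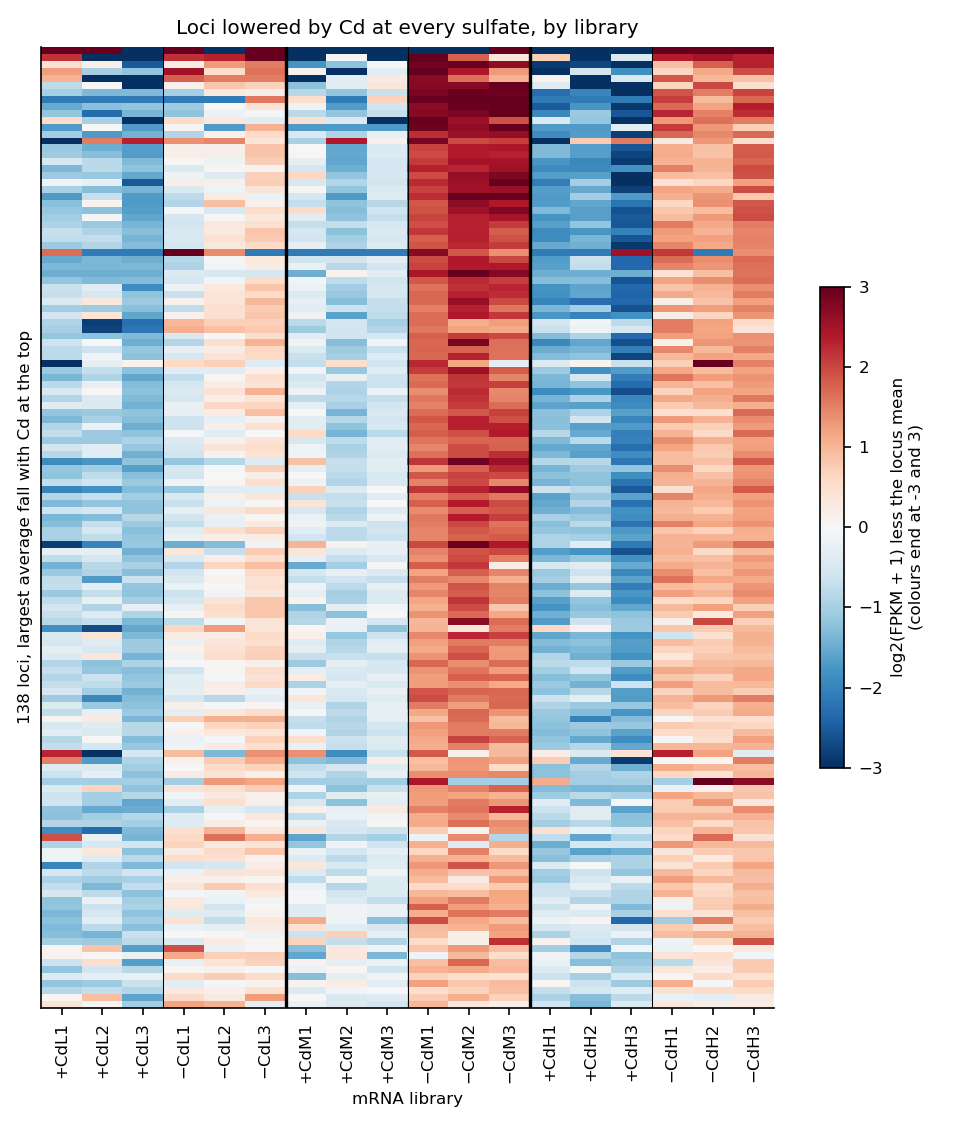
Each row is one of the 138 loci and each column one of 18 mRNA libraries; colour gives log2(FPKM + 1) less the mean of that locus over libraries, with colours ending at −3 and 3. Heavy lines part the sulfate levels and thin lines part +Cd from −Cd. The −CdM libraries are the highest for most loci, and the +CdH libraries the lowest.

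The fall with Cd was smallest at low sulfate in 123 of the 138 loci, in 6 at middle and in 9 at high sulfate. From low to high sulfate the median difference was −1.03, −2.17 and −2.41 on the log2(FPKM + 1) scale, where the medians over all 23166 loci tested (mean of 1 FPKM or more) lay within 0.01 of 0 at each level. In FPKM, the typical locus with Cd held 45.7%, 20.4% and 16.9% of its mean without Cd from low to high sulfate (medians over loci). The median over loci of the group mean was 14.1 FPKM with Cd and 33.3 FPKM without Cd at low sulfate. At middle sulfate it was 22.8 FPKM with Cd and 116.2 FPKM without Cd, and at high sulfate 10.3 FPKM with Cd and 69.7 FPKM without Cd. As ratios, low and middle sulfate thus lay further apart without Cd than with Cd, while high and middle sulfate did not. Over all loci tested, Cd differences were also narrower at low sulfate. Their quartiles were −0.14 and 0.13 there, −0.24 and 0.20 at middle and −0.21 and 0.19 at high sulfate. The 275 loci that fell by 0.8 or more at low sulfate, whatever the other levels, had medians of −1.04, −1.23 and −1.07 from low to high sulfate. The order of the falls thus depends in part on the rule, and nothing is read from it.

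All 3 +Cd libraries lay below all 3 −Cd libraries in 90 loci at low sulfate, 127 at middle and 127 at high sulfate, against a background of 11.2%, 20.9% and 17.6% of all loci tested. At every sulfate alike this held for 83 loci, against a background of 2.12%. The limma fit described below called 21 of the 138 lower at low sulfate, 119 at middle and 118 at high sulfate, with 0.397%, 13.1% and 8.59% of all loci called lower. Nothing is read from these counts, since the rule used the same differences. In whole leaves, fewer cells of a type and less RNA per cell cannot be told apart.

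**Figure D2:**
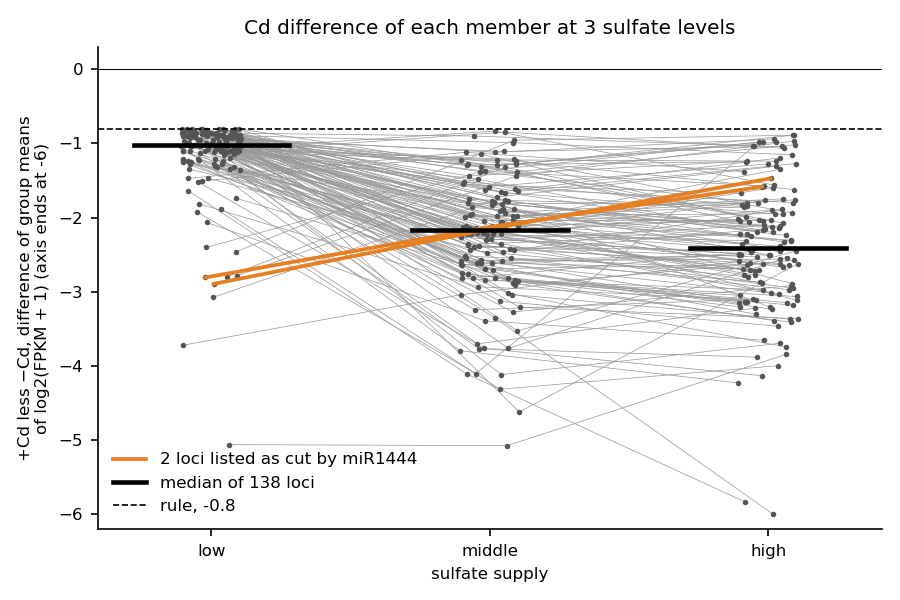
Points are the 138 loci, joined by lines across sulfate; the vertical axis is the +Cd less −Cd difference of group means of log2(FPKM + 1), ending at −6, below which XLOC_029292 lies at high sulfate (−11.01). Black bars are medians (−1.03, −2.17 and −2.41), the dashed line is the rule of −0.8, and the 2 loci listed as cut by miR1444 (orange) are among the 9 with their largest fall at low sulfate.

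Among the loci with the largest average falls, Potri.001G110700 (chromosome 1, 8795669 to 8796701; coordinates as the files give them, on a build that is not given in the sources used here) was detected in all 18 libraries. Potri.001G110700 had 4.79, 3.53 and 3.59 FPKM with Cd, against 4.73, 13.1 and 11.9 FPKM without Cd, at low sulfate. At middle sulfate its +Cd libraries had 5.43, 4.07 and 6.29 FPKM and the −Cd libraries 81, 87.3 and 86.5 FPKM. At high sulfate the values were 1.38, 1.95 and 0.436 FPKM with Cd and 41.4, 32.6 and 45.6 FPKM without Cd. The groups did not overlap at middle or high sulfate, while at low sulfate +CdL1 was just above −CdL1. Its differences were −1.04, −3.80 and −4.23 from low to high sulfate.

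Potri.009G101900 (chromosome 9, 9003855 to 9005624) had a similar course at a higher level. At low sulfate Potri.009G101900 had 11.6, 14.1 and 14.7 FPKM in the +Cd libraries and 16.2, 34.9 and 46.7 FPKM in the −Cd libraries. The +CdM libraries held 31.3, 10.3 and 22.5 FPKM, against 230.2, 277.4 and 331.9 FPKM in the −CdM libraries. The +CdH libraries held 5.31, 9.76 and 3.84 FPKM, against 116.0, 81.1 and 183.5 FPKM in the −CdH libraries. Here the groups were apart at every sulfate. The +Cd means were 41.3%, 7.63% and 4.97% of the −Cd means from low to high sulfate. Potri.004G141200 (chromosome 4, 16461282 to 16462334) is the third large fall in a locus never listed at 0. Potri.004G141200 measured 9.02, 3.51 and 7.51 FPKM with Cd and 8.66, 18.9 and 20.3 FPKM without Cd at low sulfate. With middle sulfate it measured 11.8, 8.72 and 12.5 FPKM with Cd and 147.6, 156.4 and 179.9 FPKM without Cd, and with high sulfate 4.82, 9.25 and 2.75 FPKM with Cd and 107.9, 62.9 and 102.0 FPKM without Cd. In it +CdL1 exceeded −CdL1, and the groups were apart at middle and high sulfate.

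The other 9 of the 12 largest average falls had some library listed at 0, which in FPKM files can be a failed estimate. The largest, −5.14 on average, was XLOC_029292, a locus of 157 bases without a gene identifier (chromosome 13, 14841561 to 14841718). It was listed at 0 in 10 libraries. With Cd at low sulfate XLOC_029292 was at 1292, 1098 and 0 FPKM, against 2619, 0 and 4859 FPKM without Cd. On middle sulfate the libraries with Cd were at 0, 0 and 0 FPKM and those without Cd at 0, 0 and 1056 FPKM, and on high sulfate 0, 0 and 0 FPKM with Cd stood against 2268, 1854 and 2104 FPKM without Cd. Within the low and middle sulfate groups its libraries thus ranged from 0 up to 4859 FPKM, and the groups overlapped there. XLOC_013228 (−4.66 on average; chromosome 5, 24622312 to 24622499) was listed at 0 in 5 libraries, all with Cd, and ranged up to 113.6 FPKM with Cd and between 31.4 and 322.8 FPKM without Cd. Potri.012G021600 (locus XLOC_027980; chromosome 12, 1921276 to 1921984) was at 0 in +CdH3 alone. Potri.012G021600 had 155.4, 129.8 and 18.8 FPKM with Cd, against 131.2, 276.2 and 330.0 FPKM without Cd, at low sulfate. At middle sulfate its +Cd libraries had 32.7, 47.9 and 109.6 FPKM and the −Cd libraries 841.8, 1529.6 and 724.9 FPKM. At high sulfate the values were 14.5, 15.8 and 0 FPKM with Cd and 213.7, 391.5 and 574.4 FPKM without Cd. Its −CdL1 value lay below +CdL1, and at middle and high sulfate the groups were apart. The remaining 6 were XLOC_019117, XLOC_010701, XLOC_008343, XLOC_010176, XLOC_012808 and Potri.005G024900 (locus XLOC_012152), with average differences of −2.73 to −3.40 and 2 to 9 libraries at 0. In all, 18 of the 138 loci were listed at 0 somewhere, and 11 of these 18 have no gene identifier.

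The 6 loci with the highest levels without Cd include 4 whose values were scattered or listed at 0. XLOC_011338 (154 bases; chromosome 4, 9760731 to 9760885) had the highest mean. At low sulfate XLOC_011338 had 11989, 1278 and 2225 FPKM in the +Cd libraries and 4536, 7206 and 9007 FPKM in the −Cd libraries. The +CdM libraries held 1779.9, 1673 and 4814 FPKM, against 7816, 10426 and 9804 FPKM in the −CdM libraries. The +CdH libraries held 6962, 1475 and 569.2 FPKM, against 4208, 4323 and 12156 FPKM in the −CdH libraries. +CdL1 exceeded every −Cd library but 1, −CdH3. Potri.014G011700 (locus XLOC_031266; chromosome 14, 1195435 to 1196533) was listed at 0 in +CdL1 and +CdH1, and its mean FPKM at low sulfate was higher with Cd, 2557 against 2126 FPKM without Cd, although the mean of logs was lower. Potri.014G011700 measured 0, 2799 and 4873 FPKM with Cd and 2496, 2644 and 1237 FPKM without Cd at low sulfate. With middle sulfate it measured 488.7, 5070.0 and 1062 FPKM with Cd and 6899, 3821 and 4032 FPKM without Cd, and with high sulfate 0, 1630.0 and 2840.0 FPKM with Cd and 1155, 2363 and 1336 FPKM without Cd. It leaves the set, with XLOC_000223 and XLOC_025460, when such isolated zeros are left out. XLOC_000223 is the only other locus of the set whose low sulfate mean was not lower with Cd. XLOC_029292, described above, and Potri.001G226800 (locus XLOC_001080) were also among the 6. In Potri.001G226800 the +Cd and −Cd libraries overlapped at every sulfate.

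The 2 highest loci with close replicates were Potri.008G069400 (chromosome 8, 4259406 to 4262651) and Potri.016G071600 (chromosome 16, 5255730 to 5258615). With Cd at low sulfate Potri.008G069400 was at 400.3, 425.7 and 260.7 FPKM, against 502.6, 766.6 and 906.1 FPKM without Cd. On middle sulfate the libraries with Cd were at 436.5, 321.7 and 453.7 FPKM and those without Cd at 1611, 2089 and 2219.9 FPKM, and on high sulfate 220.6, 244.6 and 170.6 FPKM with Cd stood against 1193, 1031 and 1399 FPKM without Cd. Its −CdM libraries stood above all its other libraries. Potri.016G071600 had 263.2, 318.7 and 214.5 FPKM with Cd, against 382.8, 469.8 and 663.3 FPKM without Cd, at low sulfate. At middle sulfate its +Cd libraries had 572.3, 344.5 and 413.2 FPKM and the −Cd libraries 1162, 1696 and 1635 FPKM. At high sulfate the values were 200.4, 213.7 and 133.5 FPKM with Cd and 866.7, 782.1 and 1086 FPKM without Cd. In both, every +Cd library was below every −Cd library of its sulfate. Averaged over Cd, both were lower at low than at middle sulfate (−0.82 ± 0.17 and −1.15 ± 0.18, SE; limma, adjusted p = 0.0029 and 3.8e-04).

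**Figure D3:**
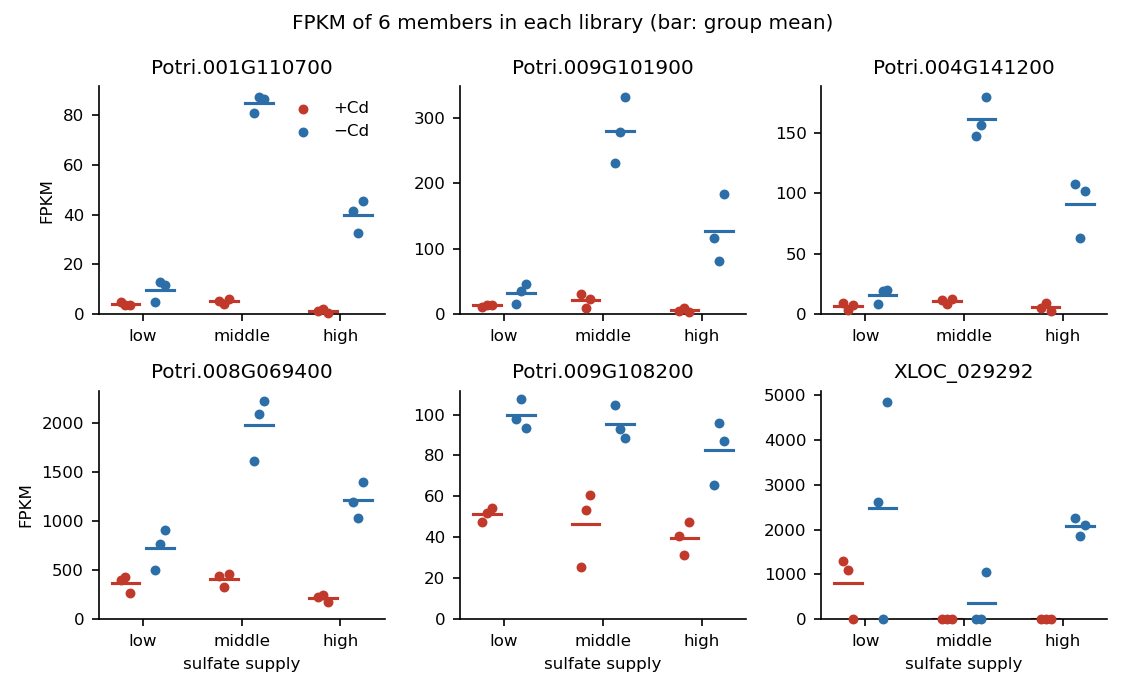
FPKM (vertical axis, from 0) of 6 of the loci in each of 18 libraries, by sulfate supply, with +Cd in red left of −Cd in blue and bars for group means. The first 4 peak without Cd at middle sulfate, Potri.009G108200 stays near 100 FPKM without Cd at low and middle sulfate, and XLOC_029292 is listed at 0 in 10 libraries.

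The falls at the 3 sulfate levels were closest to each other in Potri.009G108200 (chromosome 9, 9358950 to 9360841), at −0.94, −1.11 and −1.04 from low to high sulfate. At low sulfate Potri.009G108200 had 47.5, 52.1 and 54.2 FPKM in the +Cd libraries and 97.9, 107.5 and 93.4 FPKM in the −Cd libraries. The +CdM libraries held 25.7, 53.1 and 60.5 FPKM, against 104.6, 92.8 and 88.8 FPKM in the −CdM libraries. The +CdH libraries held 40.7, 31.3 and 47.6 FPKM, against 65.6, 96 and 86.9 FPKM in the −CdH libraries. The groups were apart at each level, and with Cd the locus held 51.5%, 48.7% and 48.1% of its level without Cd. XLOC_029644 and Potri.014G091800 were next, with differences of −0.86 to −1.03 and −1.05 to −1.24. The widest ranges were those of XLOC_029292, Potri.012G021600 and Potri.005G024900 (locus XLOC_012152), all with libraries at 0.

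The threshold cut through a dense stretch of loci. The weakest of the 3 differences lay between −0.9 and −0.8 in 47 of the 138, and 57 loci outside the set had theirs between −0.8 and −0.7. Just inside were Potri.002G118400, Potri.012G145500 and Potri.003G081500 (−0.80 each, at low sulfate). Just outside were Potri.002G002100, XLOC_019614 and Potri.011G131100 (−0.798, −0.798 and −0.795, also at low sulfate). Their middle and high sulfate differences, −1.31 to −2.89 inside and −2.10 to −2.99 outside, covered a similar range.

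Sulfate supply, averaged over +Cd and −Cd libraries, was compared between groups with limma on log2(FPKM + 1), fitted to 23166 loci with adjusted p-values over all of them. This average over Cd levels does not enter the Cd differences that chose the loci, but the minimum of 5 FPKM in a group uses the levels compared. That minimum was met at middle sulfate alone by 5 of the 138. The shares of all loci below are over the 23166 (mean of 1 FPKM or more), not over the 17555 of at least 5 FPKM. Compared with middle sulfate, 99 of the 138 loci (71.7%) were lower at low sulfate and none was higher, where 14.6% of all loci were called lower and 12.2% higher (limma, adjusted p under 0.05). At an unadjusted p under 0.05 the counts were 107 lower and 3 higher, against 20.1% and 18.9% of all loci. The median difference was −0.98 in the 138 loci and 0.01 over all loci, and 128 of the 138 differences were below 0. Of all loci, 48% were below 0. With single libraries left out, 91 to 105 of the 138 were called lower. Among the 133 that met the minimum at another sulfate too, 97 were lower at low and 47 at high sulfate; of the 119 that met it at low sulfate, 86 and 44 were.

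High sulfate also went with lower levels than middle sulfate. There 48 loci (34.8%) were lower and none higher, against 1.63% and 0.229% of all loci (limma, adjusted p under 0.05), and the median was −0.79, against −0.00 over all loci. At an unadjusted p under 0.05, 105 were lower and 0 higher, against 9.83% and 4.75% of all loci. This call rested on single libraries: without −CdM2, −CdM3, −CdH1, −CdH2, +CdM3 or +CdH3, 0 of the 138 passed, and at most 1 of all loci did. It was 8 without +CdM1, 22 without −CdL2 and 28 without +CdL1. With all libraries it was 11 with a term for the replicate number, 16 with quantile normalization and 22 with no filter on low values. It was 45 with a pseudocount of 0.1, and 45 without the variance trend. The median difference and the unadjusted count moved less, between −0.84 and −0.69 and between 94 and 106 of the 138, over all settings and over the single libraries left out.

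Between low and high sulfate, 26 of the 138 loci (18.8%) were lower at low sulfate and 2 higher, Potri.007G088300 and Potri.009G057900, against 10.3% and 11.5% of all loci (limma, adjusted p under 0.05). The median difference was −0.32. Leaving out −CdL1 or +CdH2 gave 17 lower, and leaving out +CdH3 gave 39. The count of 2 higher became 0 without +CdL1, +CdL2 or +CdH2, 5 without +CdL3 and 1 to 3 without each of the others.

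**Figure D4:**
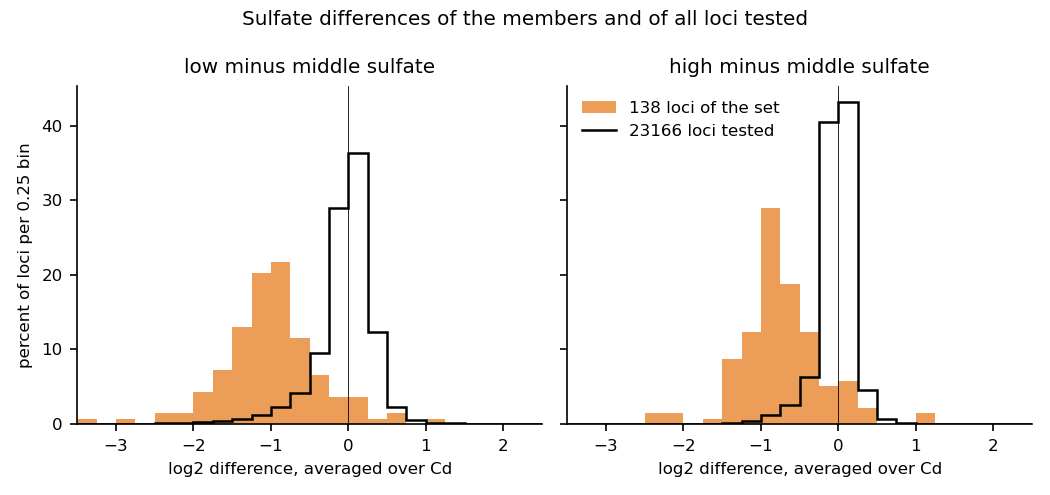
Shares of loci (percent per bin of 0.25) by the log2 difference from middle sulfate, averaged over Cd, at low (left) and high sulfate (right); filled bars are the 138 loci, lines the 23166 loci tested. The bars centre near −0.98 and −0.79 and the lines near 0; XLOC_029292, at 5.67 and 3.83, lies beyond the axis.

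Without Cd, most of the 138 loci had 1 order of sulfate levels: mean FPKM increased in the order low, high, middle sulfate in 113, an order seen in 25.5% of the loci of at least 5 FPKM. With Cd, 29 (21.0%) had that order, against 19.5% of the loci of at least 5 FPKM. There the middle sulfate mean was the highest in 104 (75.4%, against 29.6%), and the lowest mean was at high sulfate in 95 (68.8%, against 32.0%) and at low sulfate in 37. The median low minus middle difference was −0.40 with Cd and −1.52 without Cd, and the median high minus middle difference −0.84 with Cd and −0.71 without Cd. These within-Cd differences share libraries with the Cd differences that chose the loci and are given without a test.

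By the 2 calls, 45 loci (32.6%) were lower than at middle sulfate at both low and high sulfate, where 1.27% of all loci were. Another 54 passed at low sulfate alone, 3 at high sulfate alone (Potri.001G092900, Potri.002G004900 and Potri.007G088300), and 36 passed neither. Those 45 loci were the more abundant, with a median group mean of 34.0 FPKM with Cd and 187.3 FPKM without Cd at middle sulfate. The 54 had 16.6 FPKM with Cd and 71.3 FPKM without Cd there. Of the 36 that passed neither, 13 were listed at 0 in some library, as were 2 of the 45 and 3 of the 54. Among the 120 never listed at 0, 94 were lower at low and 46 at high sulfate.

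Of the 5 smallest p-values for low against middle sulfate, 4 were those of XLOC_016674, Potri.014G087700, Potri.013G151000 and Potri.002G070500, described with their values here. XLOC_016674 (chromosome 6, 10457905 to 10458568) has no gene identifier. XLOC_016674 measured 11.3, 8.97 and 9.15 FPKM with Cd and 13.4, 22.5 and 19.1 FPKM without Cd at low sulfate. With middle sulfate it measured 30.6, 23.1 and 33.4 FPKM with Cd and 80.7, 86.3 and 140.6 FPKM without Cd, and with high sulfate 17.2, 21.2 and 8.39 FPKM with Cd and 47, 47.7 and 74.7 FPKM without Cd. Within each Cd level all 3 low sulfate libraries were below all 3 at middle sulfate, a difference of −1.93 ± 0.21 averaged over Cd (SE; limma, adjusted p = 3.7e-05). Potri.014G087700 (chromosome 14, 6919299 to 6920849) was lower at low sulfate (−1.07 ± 0.12, SE; limma, adjusted p = 4.5e-05) and at high sulfate (−0.71 ± 0.12, adjusted p = 0.03) than at middle sulfate. With Cd at low sulfate Potri.014G087700 was at 37.5, 36.8 and 33.9 FPKM, against 52.8, 81.1 and 74.9 FPKM without Cd. On middle sulfate the libraries with Cd were at 60.1, 50.6 and 71.3 FPKM and those without Cd at 154.6, 220.7 and 186.8 FPKM, and on high sulfate 33.7, 39 and 29.6 FPKM with Cd stood against 130.0, 105.6 and 126.6 FPKM without Cd. Its 3 −CdM libraries stood above all others. Potri.013G151000 (chromosome 13, 15504016 to 15504931) is a low locus, at most 14.1 FPKM. Potri.013G151000 had 1.87, 1.03 and 0.523 FPKM with Cd, against 2.38, 3.56 and 2.57 FPKM without Cd, at low sulfate. At middle sulfate its +Cd libraries had 2.87, 1.97 and 2.52 FPKM and the −Cd libraries 14.1, 12.8 and 12.5 FPKM. At high sulfate the values were 0.735, 1.3 and 0.298 FPKM with Cd and 5.61, 6.92 and 5.88 FPKM without Cd. It was lower at low and at high sulfate than at middle (−1.31 ± 0.16 and −0.99 ± 0.16, SE; limma, adjusted p = 6.5e-05 and 0.03). Potri.013G151000 met the minimum of 5 FPKM only without Cd, at middle (13.1 FPKM) and high sulfate (6.14 FPKM). At low sulfate it did not, so the minimum favours its low against middle difference.

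Potri.002G070500 (chromosome 2, 4860084 to 4861669) was also lower at both (−1.37 ± 0.16 at low and −0.93 ± 0.16 at high sulfate, SE; limma, adjusted p = 7.0e-05 and 0.03). At low sulfate Potri.002G070500 had 4.14, 6.1 and 3.99 FPKM in the +Cd libraries and 7.13, 10.8 and 12.7 FPKM in the −Cd libraries. The +CdM libraries held 10.9, 5.85 and 7.67 FPKM, against 42.5, 48.2 and 46.2 FPKM in the −CdM libraries. The +CdH libraries held 4.08, 4.17 and 2.34 FPKM, against 24.5, 20.9 and 29.3 FPKM in the −CdH libraries. All 3 −CdM libraries were above every other library. XLOC_008344 (chromosome 3, 18860407 to 18860739) was listed at 0 in 7 +Cd libraries and measured 13.9 to 34.5 FPKM in the −CdM libraries, with at most 7.56 FPKM in any other. It met the minimum of 5 FPKM through the −CdM group alone, so no test of its sulfate difference is given. For high sulfate the rule also gave Potri.001G110700, at −1.30 ± 0.21, and Potri.002G122600, at −0.79 ± 0.14 (SE; limma, adjusted p = 0.03 each). Potri.002G122600 (chromosome 2, 9158305 to 9160107) was lower at low sulfate too (−0.57; limma, adjusted p = 0.0071). Potri.002G122600 measured 45.3, 41.7 and 31 FPKM with Cd and 61.7, 69.7 and 75 FPKM without Cd at low sulfate. With middle sulfate it measured 53.2, 29.8 and 36.3 FPKM with Cd and 133.5, 165.3 and 166.8 FPKM without Cd, and with high sulfate 22.4, 23.9 and 17.9 FPKM with Cd and 83.7, 83.6 and 109.6 FPKM without Cd. In each sulfate group the +Cd libraries were below the −Cd libraries. Like every other high sulfate call, these were lost when any 1 of the 6 libraries named above was left out.

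The loci most like these in their Cd response had a similar sulfate pattern. Another 638 loci fell by 0.8 or more at middle and at high sulfate but not at low. Of those, 63.5% were lower at low than at middle sulfate and 32.3% lower at high, against 71.7% and 34.8% of the 138. So most of the 638, too, were lower at low sulfate. The 138 loci are 17.8% of all 776 that fell at middle and high sulfate, and 50.2% of the 275 that fell at low sulfate. Of the 137 that fell at low sulfate without doing so at both other levels, 24.8% were lower at low than at middle sulfate and none was lower at high sulfate. The middle and high sulfate falls were larger in the 138, with medians of −2.17 and −2.41, against −1.54 and −1.35 in the 638. These differences follow in part from the way both sets were cut and were not tested.

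The 138 loci moved together between replicates of a group as well. The correlation of their deviations from the group means over 18 libraries had a median of 0.31 over pairs of loci (quartiles −0.03 and 0.60), against 0.01 (−0.24 and 0.25) over all loci of at least 5 FPKM; points share libraries, so this is a description. At low sulfate the median deviation was −0.37 in −CdL1 and 0.36 in −CdL3, and 114 of the 138 exceeded their group mean in −CdL3 but 26 in −CdL1. With Cd, +CdH3 (−0.39), +CdL3 (−0.27) and +CdM2 (−0.26) lay low and +CdH2 (0.24), +CdM1 (0.20) and +CdL2 (0.20) high. Over all loci the medians in these libraries were within 0.02 of 0.

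Short loci without an identifier were frequent. Of the 138, 18 (13.0%) have no gene identifier, against 2.11% of the loci of at least 5 FPKM, and 14 (10.1%) span under 300 bases, against 1.01%. The median span was 1317 bases, against 3936 bases. Of the 18 without identifier, 12 span under 300 bases. Spans count introns, as the files give 1 interval per locus.

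Several of the loci are neighbours. Another locus of the set was among the 5 nearest on either side for 22 of them (15.9%), while 3.32% of the loci of at least 5 FPKM have one of the set that near. On chromosome 5, Potri.005G163500, Potri.005G163600 and Potri.005G163700 follow each other between 16799504 and 16832262. Potri.005G163700 averaged 66.7, 123.5 and 51.7 FPKM with Cd from low to high sulfate, against 241.1, 869.3 and 444.8 FPKM without Cd. Potri.005G163600 averaged 43.1, 77.7 and 30.7 FPKM with Cd, against 147.6, 515.7 and 276.5 FPKM without Cd. Potri.005G163500 was far lower, at 1.38 to 2.93 FPKM with Cd and 6.29 to 19.4 FPKM without Cd. All were lower at low than at middle sulfate (−1.05, −1.27 and −1.32 in the order of their numbers; limma, adjusted p = 0.0089, 0.0049 and 0.0028).

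On chromosome 18, Potri.018G095100 and Potri.018G095200 adjoin between 12375172 and 12382828. Potri.018G095100 averaged 26.4, 56.8 and 15.3 FPKM with Cd from low to high sulfate, against 70.4, 364.4 and 162.5 FPKM without Cd. Potri.018G095200 averaged 7.75, 17.5 and 5.52 FPKM with Cd, against 22.1, 119.2 and 53.3 FPKM without Cd, and both were lower at low than at middle sulfate (−1.64 each; limma, adjusted p = 0.0029 and 0.0019). Such neighbours can be near-identical copies that share reads, which the files do not settle. The pair on chromosome 17, Potri.017G045300 (locus XLOC_036150) and the joined entry of Potri.017G045200 and Potri.017G045400, is listed at the same interval, 3783316 to 3796077, so their reads may overlap. The other runs are Potri.008G022600 with Potri.008G022700 on chromosome 8, XLOC_008343 with XLOC_008344 on chromosome 3 and XLOC_011338 with XLOC_010176 on chromosome 4. By chromosome, the 138 loci made up between 0.166% (2 of 1204 on chromosome 10) and 1.46% (9 of 615 on chromosome 17) of the loci of at least 5 FPKM.

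The degradome tables list 7 of the 138 loci as cut (5.07%), against 3.63% of the loci of at least 5 FPKM. In categories 0 to 2, which in the usual scheme mark cuts with more reads than the median position of the transcript, there were 3 (2.17%), against 1.5%. Potri.001G387900 (chromosome 1, 40412587 to 40414508) and Potri.001G388800 (chromosome 1, 40664352 to 40666292) are listed as cut by miR1444, a poplar family known for cutting transcripts of polyphenol oxidases, which are copper enzymes. The 2 miR1444 sequences listed for them are shown 5′ to 3′ as deposited, with capitals for the run of 10 bases that they share:
ptc-MIR1444c-p3_1ss1CT: tATTCGGTCAAcgttcgagtg
ptc-miR1444a_R+1: tccacATTCGGTCAAtgttcc
The run spans positions 2 to 11 of the upper and 6 to 15 of the lower sequence, an offset of 4 bases, and their cut sites in both loci lie 4 bases apart. With their seeds (bases 2 to 8) in capitals they read as below, and the seeds differ:
ptc-MIR1444c-p3_1ss1CT: tATTCGGTcaacgttcgagtg
ptc-miR1444a_R+1: tCCACATTcggtcaatgttcc

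At the site of ptc-MIR1444c-p3_1ss1CT the authors' deposited tables give 91 raw reads with Cd and 134 without Cd in each of the 2 loci, category 0 in both pools, at an alignment score of 2.5. The same 2 counts stand at 4 transcripts, among them one of Potri.001G388100, which is not in the set, so the reads cannot be assigned to 1 gene. Potri.001G388300, Potri.001G388400 and Potri.001G388600, also outside the set, had at most 88, 91 and 91 raw reads with Cd. Without Cd they had at most 132, 133 and 133. Divided over the transcripts they match, which are not only those 4, 13.1 reads fall to each with Cd and 19.2 without Cd. The site of ptc-miR1444a_R+1 had 1 read with Cd and 4 without Cd. With 1 pool per Cd level there is no test.

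Both loci fell most at low sulfate, unlike the set as a whole. With Cd at low sulfate Potri.001G387900 was at 6.26, 0.936 and 1.85 FPKM, against 26.1, 21.5 and 21.5 FPKM without Cd. On middle sulfate the libraries with Cd were at 6.73, 8.14 and 5.8 FPKM and those without Cd at 42.6, 28.1 and 31.3 FPKM, and on high sulfate 8.26, 12 and 6.88 FPKM with Cd stood against 38.3, 30.2 and 19.8 FPKM without Cd. It was lowest in +CdL2 and +CdL3. Potri.001G388800 had 9.95, 2.17 and 3.86 FPKM with Cd, against 45.4, 38.6 and 36.7 FPKM without Cd, at low sulfate. At middle sulfate its +Cd libraries had 9.31, 13.6 and 10.8 FPKM and the −Cd libraries 63.7, 49 and 46.6 FPKM. At high sulfate the values were 12.7, 18.7 and 14.2 FPKM with Cd and 61.6, 47.9 and 27.5 FPKM without Cd. Whether the 2 loci share mRNA reads was not tested. In both loci every +Cd library was below every −Cd library of its sulfate. The differences from low to high sulfate were −2.81, −2.14 and −1.58 in Potri.001G387900 and −2.89, −2.15 and −1.47 in Potri.001G388800, opposite in order to the medians of the 138. Averaged over Cd they were lower at low than at middle sulfate (−0.86 ± 0.26 and −0.76 ± 0.25; SE, limma, adjusted p = 0.024 and 0.037), while high minus middle was 0.05 and 0.06 (adjusted p = 0.97 and 0.95). The low sulfate call of Potri.001G387900 was lost without −CdM1, +CdL3 or +CdM2 (−0.78 to −0.80). That of Potri.001G388800 was lost without −CdL2, −CdL3, any −CdM library, +CdL2, +CdL3, +CdM2 or +CdM3 (−0.56 to −0.80). Only 9 of the 138 fell most at low sulfate. They include Potri.009G012200 (−2.78, −1.44 and −0.97 from low to high sulfate) and Potri.013G151500 (−2.46, −0.96 and −0.89), and 4 of the 9 were listed at 0 in some library. Of 11 loci listed with cuts by these 2 sequences, Potri.001G388900 had the most raw reads, 6445 with Cd and 6061 without Cd. It is not in the set, since its difference was −0.18 at high sulfate (−1.66 at low and −1.42 at middle). Potri.011G108300, another of the 11 that reached 5 FPKM in a group, had differences of −0.72, −0.24 and 1.13 from low to high sulfate. Its +Cd and −Cd libraries overlapped at each sulfate, and it had at most 10 raw reads with Cd and 3 without Cd.

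The miR1444 reads themselves, which the choice of loci did not use, rose with Cd. They are given as CPM, reads scaled by the library total of the rows tested, after adjustment of that total by TMM. At low sulfate they came to 20643, 30905 and 31282 CPM with Cd, against 13715, 12542 and 7307 CPM without Cd. At middle sulfate they were 26978, 28426 and 38960.1 CPM with Cd and 8611, 9557 and 10305 CPM without Cd. At high sulfate they were 36421, 30501 and 24714 CPM with Cd and 13523, 15163 and 12194 CPM without Cd. All 9 +Cd libraries were above all 9 −Cd libraries. The rise was 1.40 ± 0.15 on the log2 scale averaged over sulfate (SE; edgeR, adjusted p = 1.0e-08), and 1.30, 1.73 and 1.16 from low to high sulfate (adjusted p = 5.0e-04, 1.1e-05 and 0.0025), where 8.33%, 5.56% and 4.86% of the 144 small RNA rows tested rose. The change of this rise with sulfate missed the threshold (edgeR, adjusted p = 0.63). Averaged over sulfate, 12.5% of the rows rose with Cd.

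**Figure D5:**
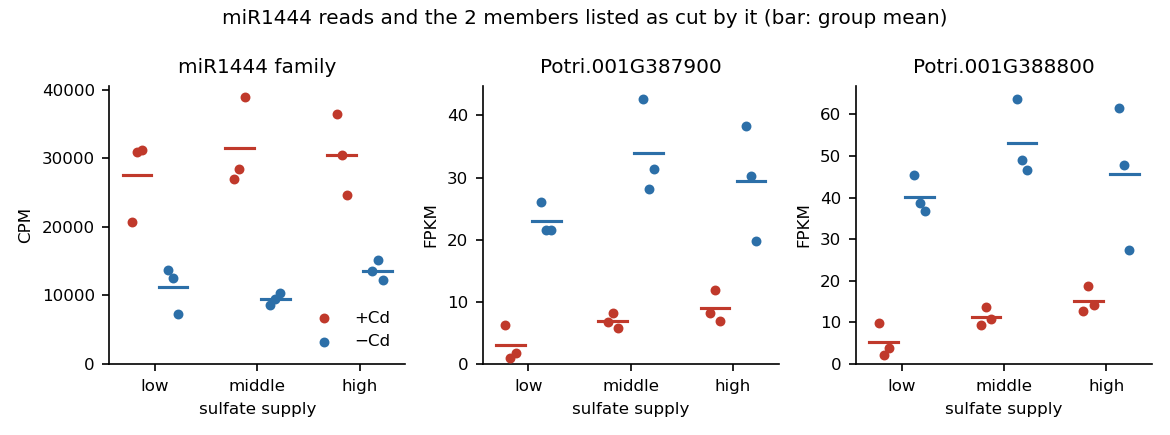
Left, summed miR1444 reads scaled by TMM-adjusted library total (CPM) in each small RNA library. Middle and right, FPKM of the 2 loci listed as cut by miR1444 in each mRNA library, by sulfate. In all panels +Cd is in red left of −Cd in blue, and bars are group means. Reads are higher and both transcripts lower with Cd at each sulfate; the libraries are different preparations, so points are not matched.

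The other cuts rest on few reads. Potri.011G129100 (chromosome 11, 15420160 to 15421131) is listed as cut by the predicted candidate below, with capitals for its seed (bases 2 to 8), with 1 raw read with Cd and 5 without Cd, category 2 without Cd:
PC-3p-2952110_2: aACAGAGGacaattgaacactt
That sequence had 7 reads in all 18 small RNA libraries together, too few to test. At low sulfate Potri.011G129100 had 41.6, 45.9 and 31.8 FPKM in the +Cd libraries and 63, 72.8 and 99.7 FPKM in the −Cd libraries. The +CdM libraries held 63.6, 37.6 and 50.7 FPKM, against 198.3, 281.8 and 192.5 FPKM in the −CdM libraries. The +CdH libraries held 26, 29.2 and 14.7 FPKM, against 144.4, 143.5 and 194.5 FPKM in the −CdH libraries. The locus was lower at low and at high than at middle sulfate (−0.92 ± 0.18 and −0.79 ± 0.18; SE, limma, adjusted p = 0.0025 and 0.044), and its +Cd and −Cd libraries were apart at every sulfate. Its high sulfate call was lost without any 1 of −CdL2, −CdM2, −CdM3, −CdH1, −CdH2, +CdL1, +CdM1, +CdM3 or +CdH3 (−0.65 to −0.84). Potri.001G397200 had 1 read with Cd and 4 without Cd at the site of a candidate of 1 read. Potri.014G091800, Potri.009G034800 and Potri.005G163700 had 1 read each, without Cd, in category 4. Divided over matching transcripts, Potri.014G091800 and Potri.009G034800 had 0.5 reads at each of their listed transcripts, and Potri.005G163700 had 1. They are listed for a candidate of 12 reads and for rare sequences named after miR156 and miR169, families known to target SPL and NF-Y transcription factors (seeds in capitals):
ptc-MIR156k-p3: cTGTGCTTtctcttcttc
ptc-MIR169ag-p3_1ss12TC: cATGCTATgcccttctct
These had 1 and 10 reads over the 18 libraries, so the family sums speak of other sequences. Summed, miR156 rose by 0.52 ± 0.17 on the log2 scale with Cd (SE; edgeR, adjusted p = 0.015) averaged over sulfate. The change of miR169 with Cd differed between sulfate supplies, with a rise that passed the threshold at low sulfate (2.27 ± 0.36, SE; edgeR, adjusted p = 2.2e-05) and not at middle or high sulfate (0.83 and −0.20, adjusted p = 0.14 and 0.79). The miR156 rise missed the threshold in 11 of 23 alternatives, 10 of them leaving out 1 library (−CdL1, −CdM3, −CdH2, −CdH3, +CdL2, +CdM1, +CdM2, +CdM3, +CdH2 or +CdH3; 0.35 to 0.44).

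The 3 loci whose levels followed XLOC_029292 most closely over the 18 libraries were Potri.006G137900 (Pearson r 0.79), Potri.004G121400 (0.78) and Potri.014G014900 (0.77), on log2(FPKM + 1). None is in the set, and their own Cd differences were small, between −0.46 and 0.04. With 10 libraries of XLOC_029292 at 0, this likeness mainly orders zeros against other values and is a description.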

How the data were processed

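Leaf mRNA was deposited by the authors as FPKM per locus, with intervals and identifiers per the file headers. TopHat2 2.1.1 is named in the submitters' processing notes; which program and build gave the FPKM is not given in the sources used here. Small RNA tables hold the authors' deposited expected counts per hairpin and mature sequence, not all whole. They were summed over hairpins once per mature sequence, then by family, and rounded; library totals were 498205 to 2934278. For each cut the deposited degradome tables give a raw read count, those reads divided over matching transcripts (a signal, per the file headers) and an alignment score.

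Fits used R 4.3.3. Loci with a mean of at least 1 FPKM (23166) were fitted on log2(FPKM + 1), a pseudocount of 1 that understates changes of low loci, with limma 3.58.1 (6 group means, trended and robust variance). Small RNA sums (144 rows past the edgeR filter) were tested with edgeR 4.0.16, the quasi-likelihood test with TMM. P-values are two-sided, with Benjamini-Hochberg adjustment over all rows and a threshold of 0.05. Both fits were tested on simulated data, drawn independently for each row and so without the shared variation between replicates described above. Tables were handled in Python 3.11.15 with pandas 2.3.3. DESeq2 1.42.0 on the rounded expected counts was an alternative, as were other normalizations, filters, pseudocounts and single libraries left out.

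The set of loci, the lists and the tests were chosen with earlier results of these data known. Named loci were those with the 12 largest average falls, the 6 highest levels without Cd, cuts in categories 0 to 2, the 5 smallest adjusted p in each direction for low and for high against middle sulfate, the 3 just inside and outside the threshold, the 3 widest and narrowest ranges over sulfate, runs of neighbours, and the 3 most like the largest fall. Lists by product name, cell type markers, promoters and proteins gave no value, since none of the identifiers matched the reference table, and no promoter or protein was used here. Small RNA sequences are the authors'.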

Additional observations from a re-analysis of the deposited data

Results flagged for a closer look

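Among the small RNA families named for a cut in these loci, the miR169 sum changed with Cd by amounts that differed between sulfate supplies (edgeR interaction, adjusted p = 0.00476). It had 1504, 551.5 and 908.7 CPM with Cd, against 193.3, 291.9 and 128.8 CPM without Cd, at low sulfate. At high sulfate it had 245.6, 293.6 and 340.7 CPM with Cd and 451.7, 290.3 and 264.5 CPM without Cd. All 3 +Cd libraries were above all 3 −Cd libraries at low sulfate, and the groups overlapped at high sulfate. From low to high sulfate the log2 difference was 2.27 ± 0.36, 0.83 ± 0.35 and −0.20 ± 0.35 (SE), with edgeR adjusted p-values of 2.2e-05, 0.14 and 0.79. With single libraries left out, the middle sulfate value was 0.35 (without +CdM3) to 0.97 and the high sulfate value −0.41 (without +CdH3) to −0.04. The miR169 sequence listed for Potri.005G163700 had 10 reads in all.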

How the results depend on the processing

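The size of the set depended on its threshold and on single low sulfate libraries. A fall of 0.6 gave 267 loci and a fall of 1 gave 68, and leaving out 1 library gave 89 to 215. The other settings gave 127 to 183, and leaving out isolated zeros, chosen after seeing the data, gave 139, of which 135 are among the 138. The count lower at high than at middle sulfate was 22 with no filter on low values, 16 with quantile normalization, 11 with the replicate block, and 0 to 57 with single libraries left out. The 5 loci named for this call kept it in 17 of 23 alternatives each, and Potri.011G129100 in 11, missing it also with no filter, with quantile normalization and with the replicate block. The count lower at low than at middle sulfate stayed between 91 and 105, and that of loci higher there was 0 to 2 with single libraries left out. The high minus middle difference, not called in either, was −0.056 to 0.17 in Potri.001G387900 and −0.060 to 0.22 in Potri.001G388800 with single libraries left out, and the low sulfate call of Potri.001G388800 missed the threshold with quantile normalization (−0.69). The other named low sulfate calls, those of Potri.001G387900 aside, held in all 23 alternatives. Between low and high sulfate, the count higher was 1 with no filter, with the replicate block and without the variance trend, and 0 to 5 with single libraries left out, where the count lower was 17 to 39. All 4 miR1444 differences kept their call. The miR169 rise at middle sulfate passed with DESeq2 (0.94). The miR156 rise averaged over sulfate was 0.38 with the largest hairpin alone and 0.35 to 0.64 with single libraries left out. At high sulfate it was 0.90 as reported (edgeR, adjusted p = 0.036) and missed the threshold in 6 of 23 alternatives. Among these was the largest hairpin (0.74), and with single libraries left out it was 0.53 to 1.23. At low sulfate its difference was −0.18 to 0.25, below 0 without −CdL1 (−0.02) and without +CdL2 (−0.18). The causes were not tested. Replicate numbers shared between groups did not pair the samples: of 45 same-numbered mRNA pairs, 7 had a correlation of deviations above 0.1 (range −0.288 to 0.268), and of 45 small RNA pairs 10 did (−0.294 to 0.542). With the replicate block, 97 of the 138 were lower at low than at middle sulfate and 27 lower at low than at high. The count higher at low than at high sulfate was 1 with it, against 2 as reported. Apart from Potri.011G129100, it changed no call among the loci and miRNA families followed singly through the alternatives. Loci named as higher at low than at high sulfate, or as passing at high sulfate alone, were not followed singly. FPKM without library totals limits what can be said of low loci.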
